A study of Mus musculus with 16 samples.

Results

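The leukocyte adhesion molecules described here are 6 genes taken by name from the count table: Vcam1, Icam1, Icam2, Selp, Sele and Cd44. They are 6 of the 28692 gene symbols measured in single endothelial cells (EC) of the mouse lung, which line its blood and lymph vessels. The cells came from female C57BL/6N mice at 4 days of a metastasis model. At d0 the mice were wild-type, at d15 they bore a primary tumour, at d22 the tumour had been resected, and at d36 they bore metastases. The tumour came from Lewis lung carcinoma cells, a mouse lung cancer line, implanted under the skin. EC were sorted by fluorescence and made into 10x Genomics 3′ libraries, which count transcripts with unique molecular identifiers (UMIs), and per the series' design text 4 libraries were made from each sample of 10000 sorted EC. The names of the cells give a day but no library or mouse, so each day is 1 pooled sample, no difference between days has a replicate check, and no p-value is given.

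Leukocytes leave the blood in steps that these molecules serve. P-selectin (Selp) and E-selectin (Sele) catch leukocytes as they roll along the vessel wall, and VCAM-1 (Vcam1) and ICAM-1 (Icam1) then bind their integrins for firm adhesion. ICAM-2 (Icam2) is carried by resting endothelium, and CD44 (Cd44) binds hyaluronan and selectins. In most organs these steps take place in venules, whereas in the lung leukocytes also leave through capillaries. P-selectin is stored ready-made in endothelial granules, and cytokines that act through NF-κB raise E-selectin, VCAM-1 and ICAM-1.

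The genes lie on 5 mouse chromosomes in the mm10 build: Vcam1 at chr3:116109949-116129688 on the minus strand, Icam1 at chr9:21015985-21028817 on the plus strand, Icam2 at chr11:106377656-106388075 on the minus strand and Cd44 at chr2:102811141-102901665 on the minus strand. Both selectin genes lie on the plus strand of chromosome 1, Sele at chr1:164048234-164057677 and Selp at chr1:164115264-164150026. RefSeq promoter sequences on GRCm38.p6 were at hand for 4 of the 6 genes (Icam1, Selp, Sele and Cd44). The 250 bases before the RefSeq start were searched on both strands for GGANATTCC, a motif of the kind that NF-κB binds, whose letters were chosen after the sequences had been seen. Icam1 and Sele each held 1 match, Selp and Cd44 none, and 0.819% of 32851 RefSeq promoters of this length held one. The pair with a match is shown because both genes are known NF-κB targets and their levels lay far apart in these cells. The Icam1 sequence runs over chr9:21015690-21015939 on the plus strand with its match starting 153 bases before the start, and the Sele sequence over chr1:164047984-164048233 on the plus strand with its match 145 bases before. Capitals mark the match.
Icam1: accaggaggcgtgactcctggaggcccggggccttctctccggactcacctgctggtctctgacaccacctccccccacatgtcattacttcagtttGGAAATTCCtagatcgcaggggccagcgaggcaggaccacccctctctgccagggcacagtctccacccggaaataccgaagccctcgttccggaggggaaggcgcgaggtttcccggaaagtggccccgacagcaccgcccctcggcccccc
Sele: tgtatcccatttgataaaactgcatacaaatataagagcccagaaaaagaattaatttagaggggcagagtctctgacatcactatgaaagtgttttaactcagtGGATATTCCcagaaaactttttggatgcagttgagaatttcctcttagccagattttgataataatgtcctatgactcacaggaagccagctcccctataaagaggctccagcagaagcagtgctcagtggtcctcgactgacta
A match describes letters in this window and is not a measured binding site.

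After filtering, 8885 EC remained of 9036 deposited cells, 2633 of them from d0, 1485 from d15, 3188 from d22 and 1579 from d36. Their summed counts were 22998604, 6909352, 27616205 and 6693991 UMIs, with median UMI counts per cell of 7646, 4176, 7669 and 3408. The cells of d15 and d36 were thus the shallower ones. A count of 4 was more frequent than a count of 1. On the 4 days in order, 45.1%, 54.8%, 46.6% and 53.9% of all values above 0 were exactly 4 UMIs for a gene in a cell, and 11.6%, 13.4%, 10.99% and 14.5% were 1 UMI. Among the genes described here, Cd44 had exactly 4 UMIs in 60.5% of its positive cells and Selp in 38.5%. The cause was not tested. Nor was it tested whether the 4 libraries of a sample hold the same cells, so that 1 transcript could enter a count up to 4 times. If so, the UMI counts overstate the molecules counted and every interval printed here is too narrow. Day ratios were therefore also computed with each count divided by 4 and rounded up, an alternative added after the data were seen and called quartered counts below. All intervals are 95% intervals and cover counting error only. A barcode sequence was shared by more than 1 day for 36 of 9000 distinct barcodes.

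Clusters of cells, made without these 6 genes, were joined into vessel groups by marker genes. General capillary-like cells (Gpihbp1, Plvap) numbered 5880 over all days and aerocyte-like cells (Car4, Ednrb), the wide capillary cells of gas exchange, 1427. Arterial-like cells (Gja5, Bmx) numbered 574 and venous-like cells (Slc6a2, Car8) 349. Lymphatic-like cells (55) and proliferating-like cells (51) were few. In each of the 6 groups every marker of its own list was at least 1.5-fold higher than in the other EC, which the naming by these lists favoured. Some groups shared markers at that size. Arterial-like cells had 2 of 7 general capillary and 1 of 9 venous markers. Of the 10 arterial markers, venous-like cells had 3, general capillary-like cells 2 and aerocyte-like cells 0. The share of venous-like cells among EC was 5.09%, 3.97%, 3.70% and 2.41% over the days d0, d15, d22 and d36. Day comparisons within a group needed 50 cells on both days, which the 38 venous-like cells at d36 did not reach.

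The members divided into 2 patterns over the vessels of wild-type mice. Vcam1 and Selp were concentrated in venous-like and arterial-like cells, and Icam1 and Icam2 in aerocyte-like cells. Venous-like cells held 54.4% and arterial-like cells 32.7% of all Vcam1 UMIs at d0, and 57.02% and 29.8% of all Selp UMIs, though these groups held 5.98% and 6.92% of the UMIs of all genes. Aerocyte-like cells held 51.0% of Icam1 and 46.9% of Icam2 UMIs, against 26.3% of the UMIs of all genes. Cd44 lay in general capillary-like cells for 56.9% of its UMIs, close to their 55.3% of all UMIs, and aerocyte-like cells held 1.45% of it.

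**Figure D1:**
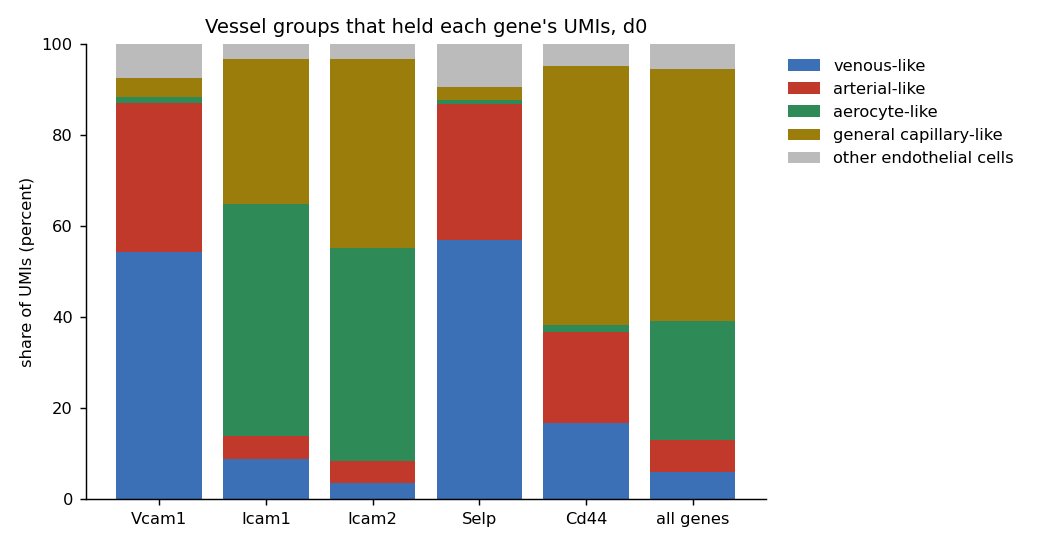
Share of each gene's UMIs at d0 (percent, stacked to 100) held by each vessel group, beside the share of the UMIs of all genes. Venous-like and arterial-like cells hold most Vcam1 and Selp UMIs, and aerocyte-like cells hold 51.0% of Icam1 and 46.9% of Icam2 UMIs.

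Among the selectins, Selp had a low level in all, and it lay in few cells. In venous-like cells at d0 it stood at 97.4 CPM (counts of the gene per 1000000 UMIs of all genes; 81.6 to 115), against 4.67 CPM in the other EC, a ratio of 20.8 (16.0 to 27.3). It was found in 22 of 134 venous-like cells, a share of 16.4%. The next levels were 44.0 CPM in arterial-like cells (34.3 to 55.6), 0.550 CPM in general capillary-like cells and 0.331 CPM in aerocyte-like cells, and the intervals of the lowest pair overlap. In aerocyte-like cells 0.438% carried a UMI, at a median depth of 13214 UMIs against 10114.5 in venous-like cells, and a share of this size was read as background. Platelets also carry P-selectin. The 5 platelet markers summed to 0.727 CPM in venous-like and 3.77 CPM in arterial-like cells at d0, with 4 and 3 of them at 0, and their part in the Selp values was not tested.

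Sele was close to absent. It had 12 UMIs in 3 cells at d0, no UMI at d15, 5 UMIs in 2 cells at d22 and 4 UMIs in 1 cell at d36. Of the 12 UMIs at d0, 11 lay in 2 venous-like cells. At d15 the count of 0 in 1485 cells allows a share of cells with a UMI of up to 0.202%. Over all EC, every interval of the Sele ratio between days included 1. In venous-like cells 11 UMIs at d0 and 0 at d22 gave a ratio of 0 (0 to 0.448). In general capillary-like cells 4 UMIs at d36 and 1 at d0 gave a ratio of 11.6 (1.15 to 571). These counts lay in at most 2 cells a day, and with quartered counts both intervals included 1.

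Vcam1, like Selp, lay mainly in venous-like and arterial-like cells. In venous-like cells at d0 it stood at 964 CPM (913 to 1018), against 51.5 CPM in the other EC, a ratio of 18.7 (17.3 to 20.3). It was detected in 70.9% of venous-like cells (62.4 to 78.4) and 25.4% of arterial-like cells (19.4 to 32.1), where it stood at 502 CPM. General capillary-like cells had 8.02 CPM with 2.89% of cells positive, and aerocyte-like cells 4.96 CPM with 4.16% positive at the higher median depth. The intervals of these lowest levels overlap. In arterial-like cells a single cell carried 245 of the 799 Vcam1 UMIs at d0 (30.7%), and the level without it was 351 CPM. The richest venous-like cell held 228 UMIs (17.2%), and the venous-like level without it was 806 CPM. Over all days the proliferating-like cells had 234 CPM, carried by 4 of 51 cells, and the lymphatic-like cells had 2 UMIs in 55 cells.

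Icam1 and Icam2 reached their highest levels in aerocyte-like cells, where Vcam1 and Selp were low. Icam1 stood at 736 CPM in aerocyte-like cells at d0 (715 to 758), against 253 CPM in the other EC, a ratio of 2.92 (2.79 to 3.04), and was found in 81.4% of these cells. Venous-like cells followed with 556 CPM (517 to 597), then arterial-like cells with 274 CPM (248.8 to 301) and general capillary-like cells with 219 CPM (211 to 227), all with separate intervals. Icam2 stood at 3642 CPM in aerocyte-like cells, against 1473 CPM in the other EC, a ratio of 2.47 (2.43 to 2.52). In venous-like cells Icam2 was lower than in the other EC, at 1192 against 2098 CPM, a ratio of 0.568 (0.541 to 0.597). Among the named groups, lymphatic-like cells of all days had the lowest levels of both, 31.9 CPM of Icam1 and 585 CPM of Icam2. Fibroblast-led cells left out of the EC had a UMI of Icam2 in 53.9% of 76 cells and 572 CPM, at a median depth of 5046.5 UMIs. All 8 pan-endothelial markers were also detected in that cluster, so this share was not read as background.

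Cd44 stood at 43.3 CPM in arterial-like cells at d0 (33.7 to 54.9) and 42.1 CPM in venous-like cells (32.0 to 54.5), levels that do not differ beyond counting error. General capillary-like cells had 15.5 CPM (13.4 to 17.8), and aerocyte-like cells had 5 UMIs in 457 cells, 0.827 CPM. The aerocyte-like level was 0.0411 of that in the other EC (0.0133 to 0.0968), below the level at which the size rule counts a gene as measured.

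Set against a size rule, 3 members were higher in venous-like cells than in the other EC at d0, Vcam1, Icam1 and Selp, and 1 was lower, Icam2. The rule asked for at least 50 CPM on either side, at least 200 UMIs in all, a ratio of 1.5 or more either way and an interval without 1, and of 3820 genes measured by it 10.8% were higher and 14.5% lower in venous-like cells. Icam1 passed narrowly, at 1.51 (1.40 to 1.62), and lay at 0.934 when clusters were drawn at a finer resolution. In aerocyte-like cells 2 members were higher, Icam1 and Icam2, and 1 lower, Vcam1, beside 14.6% and 16.6% of measured genes. In arterial-like cells Vcam1 was higher, at a ratio of 6.54 (6.00 to 7.12), as were 7.47% of measured genes. The size of these ratios depended on how the groups were drawn. The arterial-like Vcam1 ratio was 2.68 with groups taken from marker lists alone and 16.5 with the members among the clustered genes. At the finer resolution the venous-like ratio of Vcam1 was 6.54 and that of Selp 6.94. General capillary-like cells had 3 members lower, Vcam1 at 0.0352, Icam1 at 0.378 and Icam2 at 0.572, beside 8.4% of measured genes. These contrasts of a cluster with the other cells are a description.

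Vcam1 and Icam2 each had the same leading group among the named vessel groups on every day. In venous-like cells Vcam1 stood at 964 CPM at d0, 604 CPM at d15, 1102 CPM at d22 and 699 CPM at d36, each above the level in the other named groups of the same day. The unnamed cluster, with 3 cells and 28 Vcam1 UMIs at d0, stood at 992 CPM on that day. Icam2 in aerocyte-like cells stood at 3642, 3778, 4192 and 3003 CPM, again above the other groups each day. For Icam1, aerocyte-like cells had 736, 853, 830 and 752 CPM and venous-like cells 556, 805, 690 and 642 CPM, and the intervals of the pair overlapped at d15 and at d36.

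**Figure D2:**
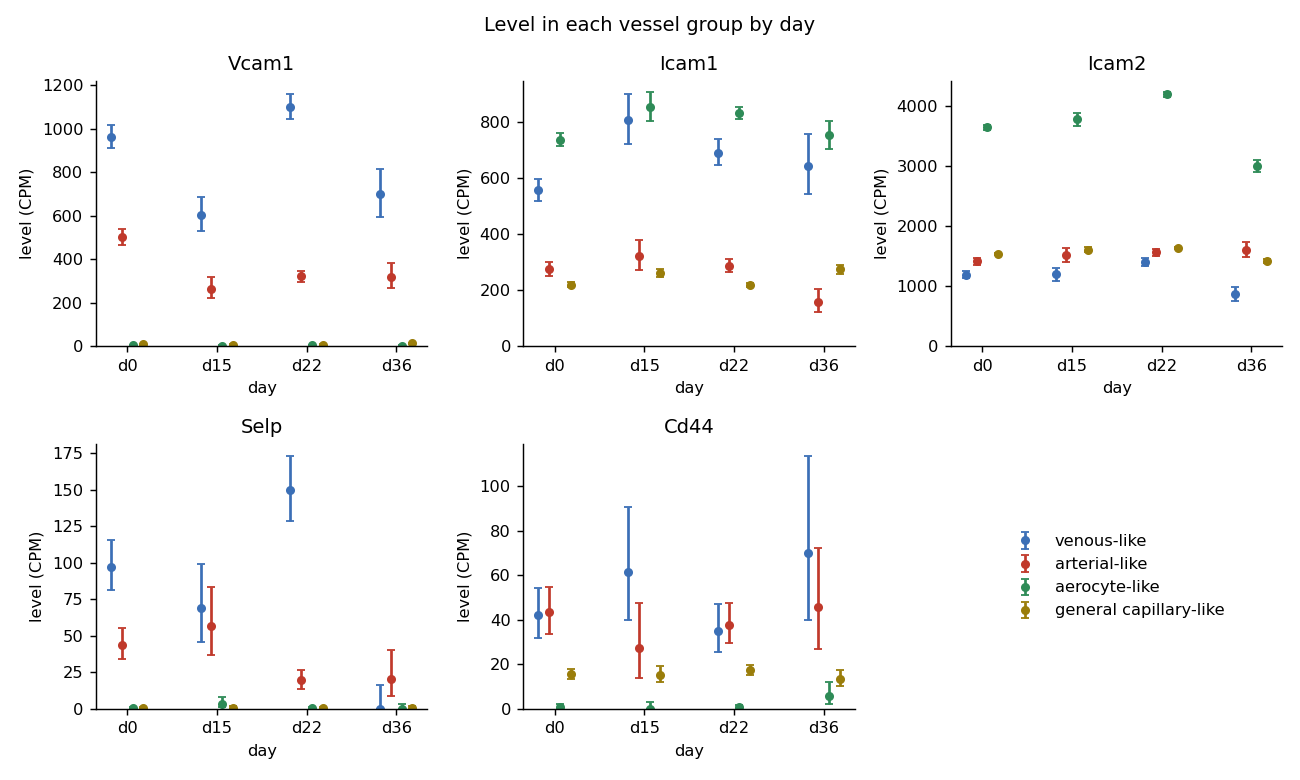
Level of each gene (CPM, linear axes from 0) in each vessel group at d0, d15, d22 and d36, with 95% counting intervals as bars. Venous-like cells have the highest Vcam1 level and aerocyte-like cells the highest Icam2 level of the named groups on every day, and Selp has no UMI in venous-like cells at d36.

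Cells with Selp were often cells with Vcam1. Cells of all days were thinned to an equal total of 2500 UMIs, which left out the 451 cells at d15 and 577 cells at d36 with fewer. Of 68 EC with a Selp UMI, 45 also had Vcam1 (66.2%, 53.7 to 77.2), against 4.40% of 7789 cells without Selp (3.96 to 4.88). Both genes lie in the same vessel groups, so the shares were also taken within them. Within arterial-like cells alone the shares were 72.7% of 22 Selp-positive cells (49.8 to 89.3) and 18.1% of 531 Selp-negative cells (14.9 to 21.6). Within venous-like cells they were 77.1% of 35 cells (59.9 to 89.6) and 49.5% of 305 cells (43.8 to 55.3). In the arterial-like group the direction was the same on the days with at least 5 Selp-positive cells: 88.9% against 20.1% at d0, 60.0% against 17.4% at d15 and 3 of 6 cells against 16.7% at d22. Icam1 was found in 32.8% of the 186 cells with Cd44 and 31.9% of cells without, a difference within the intervals.

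Genes whose level followed each member most closely were read over 15 sums of cells, one for each day and vessel group with at least 50 cells, by Pearson's r of log2 levels among 5293 genes. Sums of 1 day share a sample and sums of 1 group share a cell type, so these values only describe. Procr, the endothelial protein C receptor, followed Vcam1 most closely at 0.988, then Tshz2 at 0.986 and the elastic fibre gene Fbln5, one of the arterial markers used for naming, at 0.981. Spint2 followed Selp at 0.980, with Cpe at 0.976 and the proteoglycan Bgn at 0.959. Sept4 followed Icam2 at 0.984, with Xpnpep2 at 0.975 and Pcolce2 at 0.975. The closest to Icam1 were the lysosomal protease Ctsd at 0.916, Srd5a3 at 0.903 and Adgrl2 at 0.902, and the closest to Cd44 were Meis2 at 0.961, Rps19 at 0.957 and Plac8 at 0.954.

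Between days, over all EC, Vcam1 differed most among the members that the size rule measured. It stood at 106 CPM at d0 (102 to 110), 63.0 CPM at d15 (57.2 to 69.2), 77.2 CPM at d22 (74.0 to 80.5) and 54.5 CPM at d36 (49.1 to 60.4). The d0 level was the highest and d22 came next, while the intervals of d15 and d36 overlap. Icam1 stood at 380, 399, 403 and 359 CPM on the same days, and Icam2 at 2043, 1945, 2272 and 1686 CPM. Icam2 was thus highest at d22, while the Icam1 intervals of d15 and d22 overlap. Cd44, the hyaluronan receptor, stood at 15.04, 15.5, 14.7 and 15.5 CPM, with all intervals overlapping. Selp stood at 10.2, 9.41, 8.69 and 4.33 CPM, in 44, 16, 41 and 8 cells, and the d36 interval (2.90 to 6.22) lay below the others.

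**Figure D3:**
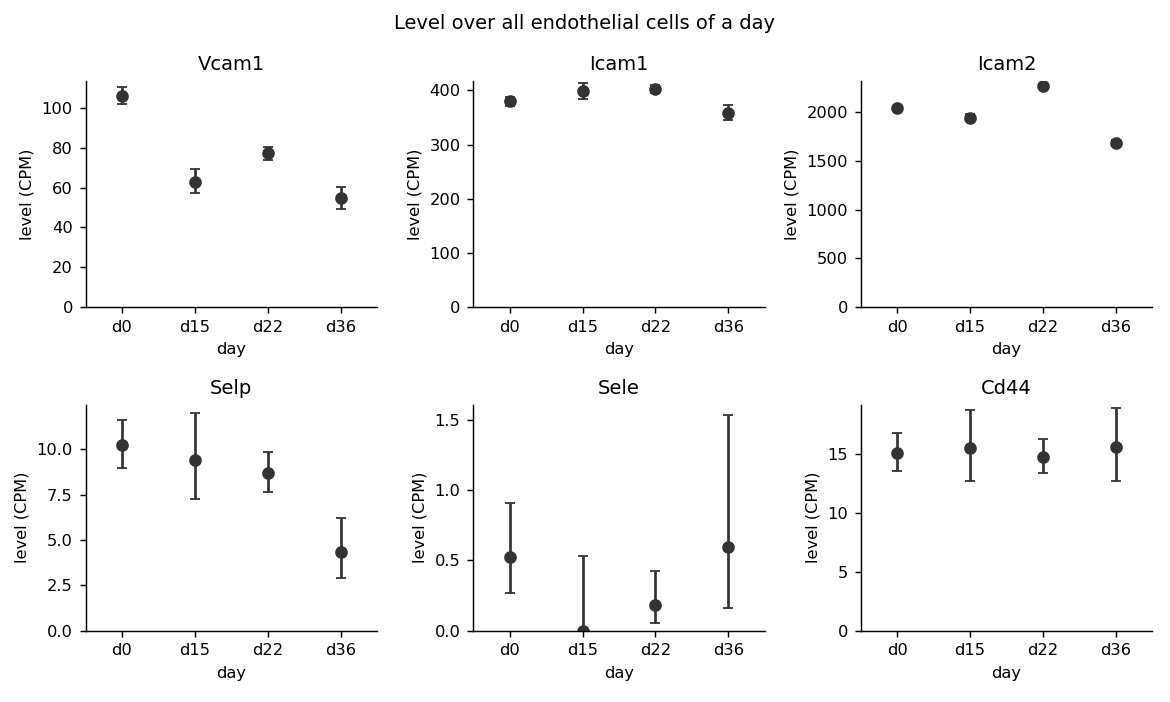
Level of each gene (CPM, linear axes from 0) over all EC of a day, with 95% counting intervals as bars. Vcam1 is highest at d0 with 106 CPM, Cd44 lies between 14.7 and 15.5 CPM, and Selp is lowest at d36 with 4.33 CPM.

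The comparison of d15 with d0 addressed the lung vessels while a tumour grew elsewhere. Of 3 members measured by the size rule (Vcam1, Icam1, Icam2), 1 was lower and 0 higher, while 2.29% of 3715 measured genes were lower and 4.12% higher. Vcam1 had 63.0 against 106 CPM, a ratio of 0.593 (0.534 to 0.657), and with quartered counts 0.672 (0.557 to 0.806), which is not past the rule. Icam1 had a ratio of 1.05 (1.005 to 1.10) and Icam2 of 0.952. Selp at 0.921, and Cd44 with 15.5 against 15.04 CPM, lay below the minimum level of the rule. The Selp ratio was 1.30 with cells thinned to 2500 UMIs and 0.104 without the 1% of cells richest in it. Selp was found in 1.67% of EC at d0 and 1.08% at d15, so that 1% took out most of its positive cells. The median log2 ratio of the measured members was -0.07, against 0.01 over all measured genes.

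The comparison of d22 with d0 joined days of near-equal depth. None of the 3 measured members passed the rule, as 0.253% of 3561 measured genes did in the higher direction and 1.74% in the lower. Vcam1 had 77.2 against 106 CPM, a ratio of 0.727 (0.686 to 0.771), Icam1 1.06 and Icam2 1.11. With cells thinned to 2500 UMIs the Vcam1 ratio was 0.555, past the rule, and with vessel groups weighted to their d0 shares it was 0.922. The weighting used only general capillary-like, aerocyte-like, arterial-like and venous-like cells, and left the other EC out. Selp had a ratio of 0.851 with overlapping levels, 1.10 with weighted groups and 0.234 without the 1% of cells richest in it. That 1% again took out most of the Selp-positive cells, which were 1.29% of EC at d22.

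At d36 the mice bore metastases. Against d0, Vcam1 was the 1 member of 3 past the rule, with 54.5 against 106 CPM and a ratio of 0.514 (0.459 to 0.574), while 3.32% of 3648 measured genes were lower and 4.28% higher. Quartered counts gave 0.556 (0.452 to 0.679). With vessel groups weighted to their d0 shares the ratio was 0.729, not past the rule, and venous-like cells were 2.41% of EC at d36 against 5.09% at d0. That weighting rests on 38 venous-like cells at d36, fewer than the 50 needed for day comparisons within a group. Icam1 had a ratio of 0.945 and Icam2 of 0.825. Selp had 4.33 against 10.2 CPM, a ratio of 0.424 (0.278 to 0.625), and with quartered counts 0.526 (0.251 to 0.999), on 29 UMIs at d36 and below the minimum level of the rule. Without the unnamed cluster led by Fabp4, in which Selp stood at 83.7 CPM over all days, that ratio was 0.287. The 3 comparisons with d0 share its cells.

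The comparison of d36 with d15 joined the shallower days. No member passed the rule, as 0.63% of 3653 measured genes did in the higher direction and 1.59% in the lower. Vcam1 had 54.5 against 63.0 CPM, a ratio of 0.866 (0.752 to 0.998), and 1.18 with cells thinned to 2500 UMIs. Icam1 had a ratio of 0.901 and Icam2 of 0.867.

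**Figure D4:**
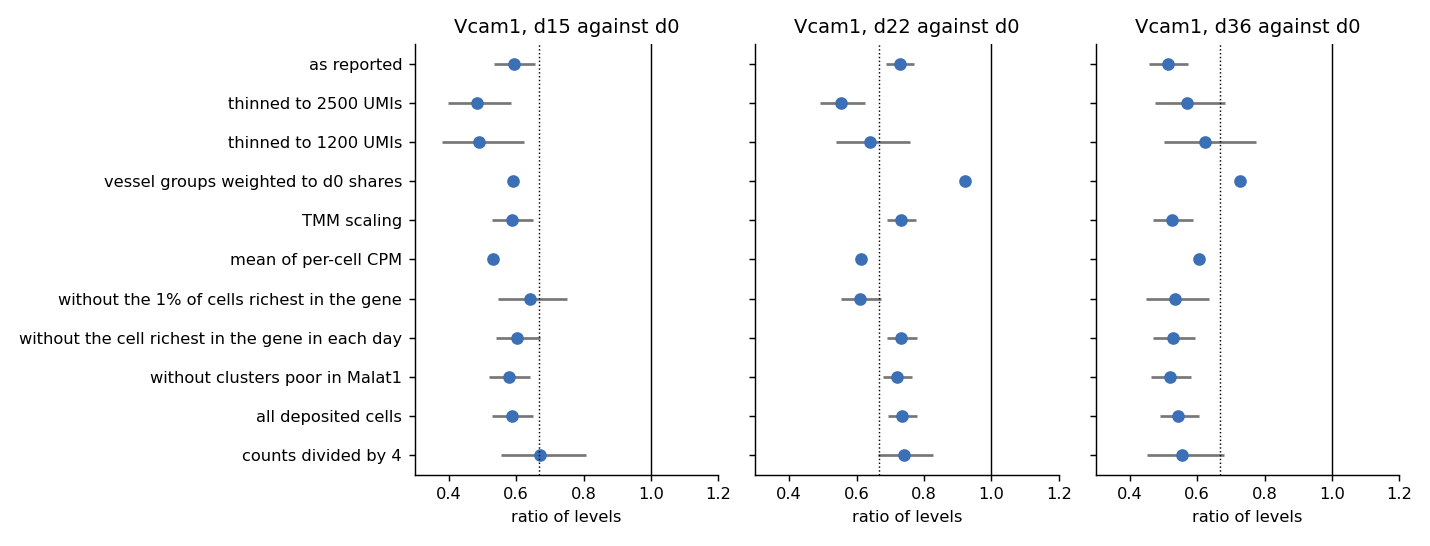
Ratio of the Vcam1 level at d15, d22 and d36 to d0 under the reported and alternative settings (linear axis, points, with 95% counting intervals as lines where a setting gives one). The solid line is equality and the dotted line the ratio of the size rule. All points lie below 1, between 0.485 and 0.922.

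The shares of positive cells depend on depth, and are given with all UMIs and thinned. Over the days d0, d15, d22 and d36, Vcam1 was found in 8.28%, 5.32%, 6.30% and 4.05% of EC, and after thinning to 2500 UMIs in 6.08%, 4.74%, 4.27% and 4.29%. Icam1 was found in 45.2%, 31.5%, 43.4% and 27.5%, and thinned in 33.0%, 30.9%, 32.5% and 28.5%. Icam2 was found in 91.3%, 76.8%, 92.1% and 71.0%, and thinned in 87.7%, 84.8%, 88.4% and 80.9%. The gap between deep and shallow days was smaller in thinned cells for Icam1 and Icam2. Cd44 was found in 3.42%, 1.95%, 3.83% and 1.90%, and thinned in 2.51%, 1.93%, 2.51% and 1.996%. After thinning, the intervals of Cd44 and Selp overlapped between all days, and that of Vcam1 at d0 (5.19 to 7.06) stood apart only from that at d22 (3.59 to 5.03). Cells thinned to 600 quartered counts gave other orders of the days. Vcam1 was then found in 3.46% of EC at d0 (2.79 to 4.23) and 2.60% at d22 (2.08 to 3.22), with overlapping intervals. Icam1 was found in 16.6%, 17.2%, 17.2% and 18.7%, highest at d36 with all intervals overlapping, and Icam2 in 57.8%, 62.0%, 62.2% and 57.3%. The Icam2 value was highest at d22 and lowest at d36 in both ways of thinning, but d15 lay above d0 with quartered counts and below it with UMIs. With quartered counts only d22 (60.5 to 63.9) stood apart, from d0 (55.9 to 59.7) and d36 (54.4 to 60.1). All other pairs of days overlapped, d15 with d22 among them.

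**Figure D5:**
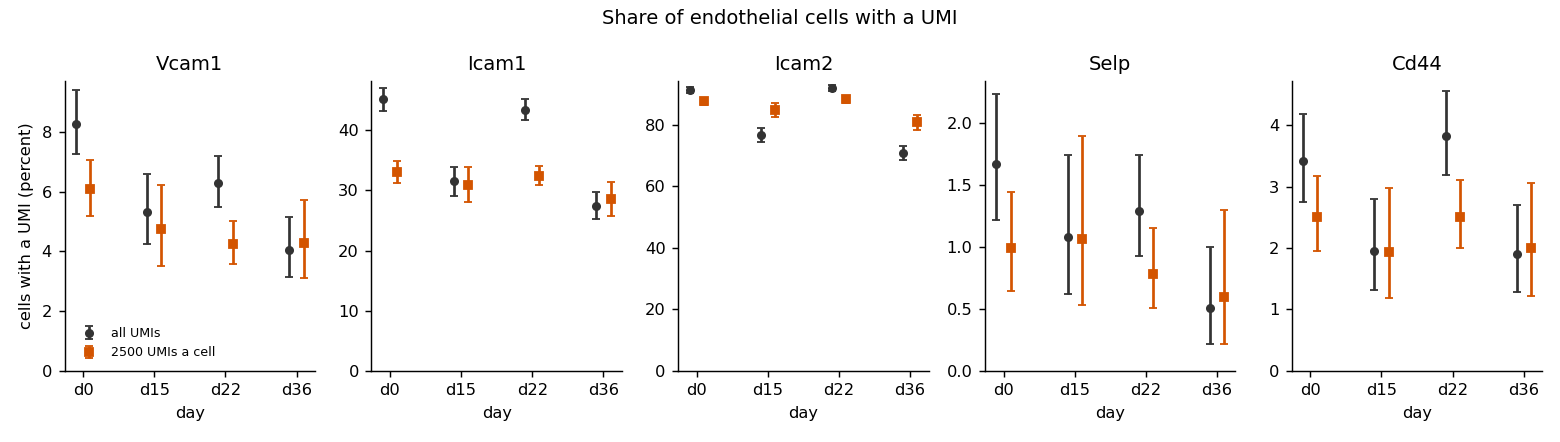
Share of EC with at least 1 UMI of the gene (percent, linear axes from 0) at each day, with all UMIs (circles) and with each cell thinned to 2500 UMIs (squares), with 95% Clopper-Pearson intervals as bars. The gap of d15 and d36 to d0 and d22 in Icam1, Icam2 and Cd44 is smaller in the thinned cells, where Icam1 lies between 28.5% and 33.0%. Thinning leaves out 451 cells at d15 and 577 at d36.

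In arterial-like cells Vcam1 differed between days in its level, while the shares of cells that carried it overlapped. It stood at 502, 265, 321 and 320 CPM over d0, d15, d22 and d36, while 25.4%, 21.8%, 23.4% and 23.6% of these cells carried it. The ratios to d0 were 0.528 (0.431 to 0.642) at d15, 0.639 (0.575 to 0.710) at d22 and 0.638 (0.525 to 0.771) at d36, all past the rule, which 10.8%, 4.91% and 10.7% of measured genes passed as lower in this group. Without the richest cell of each day these ratios became 0.615 (0.489 to 0.767), 0.802 (0.711 to 0.904) and 0.734 (0.587 to 0.911), and that of d15 alone was past the rule. With quartered counts they were 0.572, 0.663 and 0.696, and the first pair was past the rule.

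In venous-like cells the Vcam1 level of 604 CPM at d15 was 0.626 of the 964 CPM at d0 (0.544 to 0.718), past the rule as were 9.08% of measured genes in the lower direction. It was 0.655 with quartered counts and 0.650 without the richest cells. With all UMIs 50.8% of these cells carried it at d15 (37.5 to 64.1) and 70.9% at d0 (62.4 to 78.4). These intervals overlap, and the median depths were 6714 and 10114.5 UMIs. In cells thinned to 600 quartered counts the shares were 14.3% (6.38 to 26.2) and 35.8% (27.7 to 44.6). At d22 the level was 1102 CPM, 1.14 times that at d0 (1.06 to 1.23), and 1.14 (0.985 to 1.32) with quartered counts. Vcam1 in general capillary-like and aerocyte-like cells lay between 1.67 and 12.1 CPM on all days, below the minimum level of the rule. In general capillary-like cells it had 12.1 CPM at d36, against 8.02 CPM at d0 and 5.70 CPM at d15. The ratios of d36 to these days were 1.51 (1.06 to 2.12) and 2.12 (1.30 to 3.53). With quartered counts they were 1.35 (0.796 to 2.24) and 1.13 (0.606 to 2.11). A single cell held 22.6% of the 53 UMIs at d36.

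Selp in venous-like cells stood at 97.4, 68.8, 150 and 0 CPM over d0, d15, d22 and d36. It was found in 22, 4, 24 and 0 of these cells, and 1 cell held 57.1% of its 28 UMIs at d15. At d36 no UMI was found in 38 cells, which allows a share of up to 7.89%. Of the 29 Selp UMIs at d36, 10 lay in the unnamed cluster led by Fabp4, 8 in arterial-like, 5 in Malat1-poor and 4 in proliferating-like cells. The d22 ratio to d0 was 1.54 (1.22 to 1.93), past the rule as were 4.45% of genes in the higher direction, and 1.39 (1.08 to 1.80) without the richest cell of each day, not past it. The share of venous-like cells with a UMI was 20.3% at d22 (13.5 to 28.7) and 16.4% at d0 (10.6 to 23.8), with overlapping intervals. In arterial-like cells Selp had 19.5 CPM at d22 and 44.0 CPM at d0 (ratio 0.443, 0.290 to 0.666), below the minimum level. Mural cell markers summed to 243 CPM in venous-like cells at d22 and 40.7 CPM at d0, with 4 of the 6 at 0 at d22 (Pdgfrb, Cspg4, Notch3 and Cox4i2). Their part in the d22 values was not tested.

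Icam1 in venous-like cells had 805 CPM at d15, 690 CPM at d22 and 556 CPM at d0. The ratios of 1.45 (1.27 to 1.65) at d15 and 1.24 (1.12 to 1.37) at d22 were short of the size of 1.5. In arterial-like cells Icam1 had 158 CPM at d36 on 62 UMIs, and 274 CPM at d0. The ratio of 0.575 (0.434 to 0.752) was past the rule, as were 10.7% of 1842 measured genes in the lower direction, and with quartered counts it was 0.608. Set against the 322 CPM of arterial-like cells at d15, the ratio at d36 was 0.490 (0.357 to 0.665), past the rule as were 8.28% of measured genes in the lower direction, and with quartered counts 0.573, not past it. In general capillary-like cells Icam1 had 274 CPM at d36 and 219 CPM at d0, a ratio of 1.251 (1.17 to 1.34). Icam2 in aerocyte-like cells had 3003 CPM at d36 and 3642 CPM at d0, a ratio of 0.825 (0.796 to 0.854). The cells behind these group levels were not drawn alike from the clusters of a group. At d36, 156 of the 240 aerocyte-like cells lay in a cluster of lower depth led by Tbx2, while at d0 385 of 457 lay in the cluster led by Chst1. Over all days Icam2 stood at 3129 CPM in the first of these clusters and 3927 CPM in the second. General capillary-like cells likewise drew most from a cluster led by MHC class II genes at d0 and d22 (410 and 632 cells), one led by Hey1, a gene on the arterial list, and Lpl at d15 (343 cells) and one of low depth led by Pycard and Hmcn1 at d36 (305 cells).

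Around these members, 62 genes of leukocyte traffic were read: junction proteins, actin linkers, selectin ligand enzymes, hyaluronan enzymes, cytokine receptors with NF-κB and IRF factors, and counter-receptors on leukocytes. Of 28 measured at d15 and d0, 0 were higher and 1 lower, beside 4.12% and 2.29% of all measured genes. Of 27 at d22 and d0, 0 were higher and 2 lower, beside 0.253% and 1.74%. Of 29 at d36 and d0, 0 were higher and 2 lower, beside 4.28% and 3.32%. Glg1, which carries E-selectin ligands on leukocytes, was lower each time, with 59.6, 61.9 and 43.3 CPM at d15, d22 and d36, where d0 had 93.6 CPM, and ratios of 0.637, 0.661 and 0.463. Msn, the actin linker moesin that binds ICAM and CD44 tails, had 334 CPM at d22 and 504 CPM at d0 (ratio 0.663). Cd34, a sialomucin of capillary endothelium, had 391 CPM at d36 and 633 CPM at d0 (ratio 0.618). At d0 Cd34 stood at 1522 CPM in aerocyte-like cells and 318 CPM in general capillary-like cells. Aerocyte-like cells held 26.3% of all UMIs at d0 and 17.9% at d36, and the part of this shift in the Cd34 ratio was not tested. Between d36 and d15, 0 of 29 passed the rule, beside 0.63% of all measured genes higher and 1.59% lower. In the sub-list of cytokine receptors and NF-κB or IRF factors, 0 of 10, 10 and 11 measured genes passed in either direction against d0, with median log2 ratios of 0.06, -0.01 and 0.18 at d15, d22 and d36. Of the 7 counter-receptors on leukocytes, such as the integrin gene Itga4, 0 were measured.

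Markers of leukocytes were also read among the EC counted. The 5 pan-leukocyte markers summed to 4.30, 2.89, 6.01 and 9.56 CPM over d0, d15, d22 and d36, and in venous-like cells to at most 2.91 CPM, with 4 or 5 of the 5 at 0 on each day. In arterial-like cells they reached 11.3 CPM at d15, with 4 of 5 at 0. The 6 macrophage markers summed to 14.6, 13.7, 20.5 and 22.6 CPM over the days, and to 35.0 CPM in venous-like cells at d36, with 5 of 6 at 0. B cell markers summed to 17.5 CPM at d36 and at most 2.17 CPM on the other days. Epithelial markers summed to 83.2, 57.9, 142 and 132 CPM over the days. The part of these markers in the members' values was not tested.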

How the data were processed

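The table deposited by the authors holds counts, the UMIs per gene and cell, unscaled. Cell Ranger 2.1.1 and the mm10 build stand in the submitters' processing notes. Any filter on cells is not given in the sources used here.

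Cells under 300 genes or over 10% mitochondrial UMIs were left out, 19 in all. Counts were log-normalised, 30 principal components were computed from 1998 variable genes without the members, and Leiden clusters were drawn at resolution 1 on a graph of 15 neighbours (scanpy 1.11.5, leidenalg 0.10.2, igraph 0.11.9). Clusters were named from marker lists, and 132 cells led by markers of other cell types were left out: 76 in a fibroblast-led cluster, 50 in a cluster led by epithelial and platelet genes and 6 with at least 2% of their UMIs in such markers. Clusters with Malat1 under 25% of the median cluster's level stayed outside the named groups but among the EC, as did 50 cells of an unnamed cluster. No doublet caller was run, so doublets of EC remain.

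UMIs were summed per day or vessel group and divided by the sum of all UMIs (CPM). Ratios have exact binomial 95% intervals and shares Clopper-Pearson ones, for counting error only. Where nothing was counted, 3 counts set the upper limit. The size rule took genes with at least 50 CPM on either side and 200 UMIs in all, a ratio of 1.5 or more either way and an interval without 1. It was tested on simulated data. Counts of exactly 4 UMIs were far more frequent than 1, so intervals may be too narrow. Day sums scaled by TMM used edgeR 4.0.16 in R 4.3.3. Genes named for likeness were the 3 with the highest r of log2(CPM + 10), and of the 62 genes of leukocyte traffic at most the 3 highest and 3 lowest ratios past the rule are named. The members, lists and rules were chosen with earlier results of these data known.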

Additional observations from a re-analysis of the deposited data

Results flagged for a closer look

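Vcam1 lay on opposite sides of equality in 2 vessel groups in the comparison of d22 with d0, at 1.14 (1.06 to 1.23) in venous-like cells and 0.639 (0.575 to 0.710) in arterial-like cells. The difference between the groups was not tested, each rests on 1 pooled sample a day, and without the richest cell of each day the arterial-like ratio was 0.802. With quartered counts the venous-like interval reached from 0.985 to 1.32. Icam1 in the comparison of d36 with d0 had a ratio of 1.251 in general capillary-like cells and 0.575 in arterial-like cells, and this difference was not tested either. Icam2 in the same comparison had 1.13 in arterial-like cells and 0.825 in aerocyte-like cells, untested as well, and the arterial-like interval with quartered counts included 1 (0.954 to 1.34).

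Members were also found at levels above the level over all EC on any day in cells that the comparisons left out. The 76 fibroblast-led cells had Vcam1 at 235 CPM and Cd44 at 25.9 CPM, in 22 and 5 cells. The 50 cells led by epithelial Ager and platelet Ppbp had Icam1 at 1058 CPM and Cd44 at 40.5 CPM, in 27 and 4 cells. Among EC, venous-like cells at d0 had 964 CPM of Vcam1 and 42.1 CPM of Cd44 (32.0 to 54.5).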

How the results depend on the processing

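Vcam1 kept a ratio to d0 below 1 under all 12 alternatives that recomputed it, between 0.485 and 0.672 at d15, 0.555 and 0.922 at d22, and 0.516 and 0.729 at d36. Its side of the size rule was less stable. At d15 the count of members past the rule was 0, not 1, with quartered counts, with a ratio of at least 2, and without the 1% of cells richest in the gene, where no day reached 50 CPM. At d36 it was 0 with a ratio of at least 2, without those cells and with vessel groups weighted to d0 shares, but 2 (Vcam1 and Selp lower) at a minimum of 10 CPM and 50 UMIs and with no minimum. At d22 it was 1 (Vcam1 lower), not 0, with cells thinned to 2500 or 1200 UMIs, with the mean of per-cell CPM and with a smaller minimum ratio than 1.5. Between d36 and d15 it was 1 (Selp lower) with no minimum. Of 3 members higher in venous-like cells, 1 (Vcam1) remained at resolution 2 and with groups taken from marker lists without clustering. Icam1 there turned to 0.934 at resolution 2. The share of all genes past each altered rule is not given, so these counts of members cannot be set against a background. The cause was not tested in any case but the minimum.

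Quartered counts, the left-out richest cell, the unnamed cluster and cells above 3 times the median UMI count (51, 34, 47 and 58 cells at d0, d15, d22 and d36) were alternatives added after seeing the data. No paired analysis was possible because a cell's name gives its day and no library, and for the same reason no library could be left out in turn. Depth limits Sele, found in 6 cells over all days. Over all EC, Selp and Cd44 lay under the minimum level in every comparison of days.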
